A study of Drosophila melanogaster with 2 samples.

Results

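The regulators described here are 9 Drosophila melanogaster genes through which larvae read sugar and the lack of food: Mondo, bigmax, sug, daw, REPTOR, crc, Sik3, Sirt1 and Lk6. A region bound by Hnf4 was counted for a gene when its summit, the position of highest signal, lay in the gene body or within 2000 bp of it. By that rule 21 of the 5817 regions in the authors' optimal set, or 0.361%, belonged to the 9 genes. Mondo and crc are neighbours and shared 2 of these regions. Hnf4 is a nuclear receptor for which lipid ligands have been proposed, and in flies it acts in fat breakdown and sugar balance.

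The flies were 1 transgenic line that stably carried Hnf4 fused at its C terminus to green fluorescent protein (GFP). Whole wandering larvae of the third instar, males and females pooled, gave 2 biological replicates for chromatin immunoprecipitation with sequencing. The labels describe an antibody against GFP, but their antibody field names Hnf4. There was 1 group and no treatment, so no contrast between fed and starved or between low and high sugar animals was possible. In material from whole larvae, strong binding in few cells and weak binding in many cells cannot be told apart. The lists used hold regions and no read counts, so depth is unknown. Relaxed lists, which hold strong regions and background, had 29999 entries for replicate 1, 30000 for replicate 2 and 30000 for both pooled. Their median signal values, the authors' score for the strength of a region, were 20.9, 14.1 and 29.5. Signal values are the authors' own in every sentence below, and they rank regions within 1 list.

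Animals meet swings in diet with sensors that act on transcription. Mondo, the fly relative of the vertebrate carbohydrate response factors MondoA and ChREBP, is a basic helix-loop-helix leucine zipper protein that answers to sugar phosphates and binds DNA with its partner bigmax, also called Mlx. Downstream of this pair are sug, a zinc finger factor needed for sugar tolerance and lipid synthesis genes, and daw, a secreted Activin-like ligand. When amino acids or energy fall, the kinase complex TORC1 loses activity, and REPTOR, a transcription factor that TORC1 holds in the cytoplasm, enters the nucleus. The crc gene encodes the fly ATF4, a bZIP factor of the amino acid and endoplasmic reticulum stress responses. Sik3 is a salt-inducible kinase that restrains the deacetylase HDAC4 in fed animals, Sirt1 is an NAD-dependent deacetylase, and Lk6 is the fly Mnk kinase, which phosphorylates the cap-binding protein eIF4E.

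The daw gene is shown first because 2 of its regions held the Hnf4 direct repeat, a pair of receptor half-sites with 1 base between them. The window of 201 bases around each summit is given from the plus strand of Release 6 (RefSeq), the dm6 build, with the repeat in capitals. The first lies at chr2L:2804668-2804868, upstream of daw, and the second at chr2L:2806274-2806474, in the first intron of its longer transcripts.
daw upstream: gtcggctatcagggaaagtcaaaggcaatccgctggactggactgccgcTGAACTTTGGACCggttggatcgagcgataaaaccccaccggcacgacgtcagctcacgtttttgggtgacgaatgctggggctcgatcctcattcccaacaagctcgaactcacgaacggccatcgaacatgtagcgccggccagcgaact
daw intron: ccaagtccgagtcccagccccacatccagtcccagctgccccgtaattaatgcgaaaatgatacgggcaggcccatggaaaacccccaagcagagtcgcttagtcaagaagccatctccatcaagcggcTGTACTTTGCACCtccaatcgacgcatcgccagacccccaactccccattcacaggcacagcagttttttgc

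Both repeats lay on the minus strand. Read on that strand, the upstream match was GGTCCAAAGTTCA and the intronic match GGTGCAAAGTACA. Counted from the 5′ end of the match, the second differed from the first by 2 substitutions, C4G and T11A. The repeat's centre was 45 bp from the upstream summit and 35 bp from the intronic one.

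The strongest regions of the other listed genes on arms 2L and 3R are shown to let their composition be compared with daw. Capitals mark matches to the searched motifs, which were the GAGA factor site (GAGAGAG) and the FOXO site (GTAAACA) in these windows. The windows are chr3R:11760950-11761150 for Lk6, chr3R:24572589-24572789 for REPTOR, chr3R:27288570-27288770 for bigmax, chr2L:21310751-21310951 for Mondo and crc, and chr2L:13165015-13165215 for Sirt1, all from the plus strand.
Lk6: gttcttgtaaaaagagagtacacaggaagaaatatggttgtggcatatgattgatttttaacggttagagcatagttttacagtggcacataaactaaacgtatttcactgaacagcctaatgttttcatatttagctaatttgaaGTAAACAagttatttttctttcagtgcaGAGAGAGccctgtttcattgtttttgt
REPTOR: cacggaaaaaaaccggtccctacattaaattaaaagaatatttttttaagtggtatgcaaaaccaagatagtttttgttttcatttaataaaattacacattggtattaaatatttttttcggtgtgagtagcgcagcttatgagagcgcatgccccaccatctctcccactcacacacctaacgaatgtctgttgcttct
bigmax: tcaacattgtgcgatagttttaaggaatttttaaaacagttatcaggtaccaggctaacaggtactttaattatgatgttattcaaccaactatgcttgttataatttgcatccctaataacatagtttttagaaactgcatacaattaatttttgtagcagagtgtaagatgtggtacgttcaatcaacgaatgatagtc
Mondo and crc: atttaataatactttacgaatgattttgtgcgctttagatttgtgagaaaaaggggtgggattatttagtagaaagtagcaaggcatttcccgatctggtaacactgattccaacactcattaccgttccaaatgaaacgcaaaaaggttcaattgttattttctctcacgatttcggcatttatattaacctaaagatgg
Sirt1: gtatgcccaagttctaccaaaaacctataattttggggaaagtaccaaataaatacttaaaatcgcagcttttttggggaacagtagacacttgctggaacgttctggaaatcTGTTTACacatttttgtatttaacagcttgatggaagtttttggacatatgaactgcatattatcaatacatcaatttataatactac

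G and C made up 57.2% of the upstream and 55.7% of the intronic daw window. The same share was 32.8% for Lk6, 35.8% for REPTOR, 31.3% for bigmax, 34.8% for the window shared by Mondo and crc, and 32.8% for Sirt1. The median over all optimal regions was 36.8%, so the 2 daw windows shown lay above that median and the other 5 shown lay below it. High values were not particular to daw: the 3 windows of sug, on an arm whose sequence is not shown, had 56.2%, 60.7% and 59.7%, and the strongest of Sik3 had 39.8%.

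All 9 genes had an optimal region, against 33.0% of the 13986 protein-coding genes counted the same way. Long genes hold more summits, and the listed genes are long, with a median of 8662 bp against 2163 bp for all protein-coding genes. Among genes at least as long as the shortest listed gene, bigmax at 1161 bp, the share with a region was 37.3%. Among genes at least as long as the listed median it was 56.2%, a cut added after the data were seen. A summit within 1000 bp of one of the gene's own start sites was found at 9 of 9 listed genes, against 22.9% of all protein-coding genes. At least 2 optimal summits were found at 8 of 9, all but Sirt1, against 15.3%. An optimal region that overlapped the 5817 strongest regions of both replicates was found at 8 of 9, again all but Sirt1, against 27.1%. The shares of 22.9%, 15.3% and 27.1% have no length cut, and Mondo and crc were both counted through the regions they share. The genes were put together with earlier results of these data known, so these shares are a description.

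The 9 genes spanned most of the range of strength seen in the genome. The signal value of the strongest region was 1311 at Lk6, 713 at REPTOR, 363 at bigmax, 362 at sug, 340 at daw, 191 at Sik3, 94.4 at Mondo and crc, and 85.9 at Sirt1. Over the 4617 protein-coding genes with an optimal region, the median of the strongest signal value was 161, with quartiles at 104 and 268. Lk6 was passed by 0.758% of those genes, REPTOR by 3.49%, and bigmax, sug and daw by 14.7% to 16.7%. Sik3 was passed by 41.0%, while Mondo and crc were passed by 80.3% and Sirt1 by 86.0%. The 94.4 counted for Mondo came from the shared region at the crc start, and the region at the Mondo start had 70.0. Single regions were less unusual: the median signal value of the 21 regions was 126 against 114 for all optimal regions, with 7 of them above the upper quartile of 182 and 4 below the lower quartile of 84.0.

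**Figure D1:**
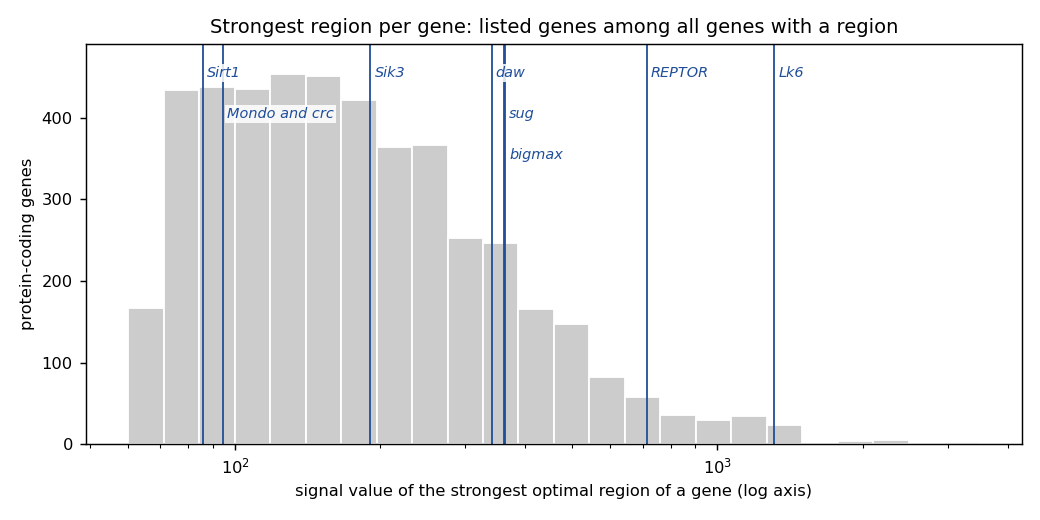
Grey bars count the protein-coding genes by the signal value of their strongest optimal region, on a log axis, and blue lines mark the listed genes. Lk6 at 1311 and REPTOR at 713 lie in the thin upper tail, and Sirt1 at 85.9 and Mondo and crc at 94.4 lie below the median of 161.

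Both replicates placed Lk6 and REPTOR at the top, and disagreed on the order in the middle. By its strongest region, Lk6 was number 21 in replicate 1 and number 17 in replicate 2, and REPTOR was number 81 and number 91. In replicate 1 the next were daw at 291, sug at 296 and bigmax at 701, whereas in replicate 2 they were bigmax at 247, sug at 575 and daw at 850. The order of bigmax, sug and daw thus changed with the replicate, and no order among them is given. Sik3 came after these in both, at 1561 and 1334. Sirt1 was number 6521 in replicate 1, behind Mondo and crc at 3765, and number 2812 in replicate 2, ahead of crc at 3736 and Mondo at 4002. Across the 21 regions Spearman's rho of the replicate ranks, each taken from the region with the nearest summit, was 0.59, as a description, since the optimal set was made from both replicates.

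**Figure D2:**
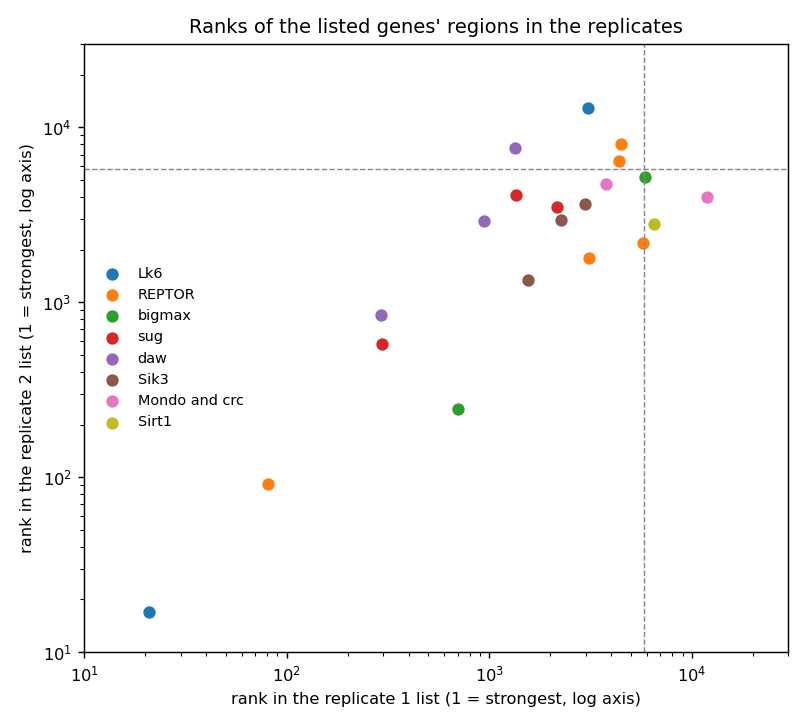
Each point is 1 of the 21 regions, with its rank in the replicate 1 list on the horizontal and in the replicate 2 list on the vertical log axis, and dashed lines at 5817. The strongest regions of Lk6 and REPTOR stand at the lower left, and 7 regions lie beyond a dashed line.

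All 21 regions overlapped a relaxed region of each replicate by at least 1 bp. That overlap says little, since those lists hold background and the optimal set was made from both replicates. The strongest 5817 regions of replicate 1 covered 18 of them, those of replicate 2 also covered 18, and 15, or 71.4%, were covered by both. The share over all optimal regions was 71.0%, close to that of the listed genes. When the replicate region with the nearest summit had itself to be among the strongest, a stricter reading added after the data were seen, 14 regions, or 66.7%, qualified, against 67.6% of all. The replicate values given below are those of the overlapping region with the nearest summit. The median distance between the optimal and the replicate summit was 4 bp in replicate 1 and 10 bp in replicate 2. Over all optimal regions these medians were 7 bp and 19 bp.

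**Figure D3:**
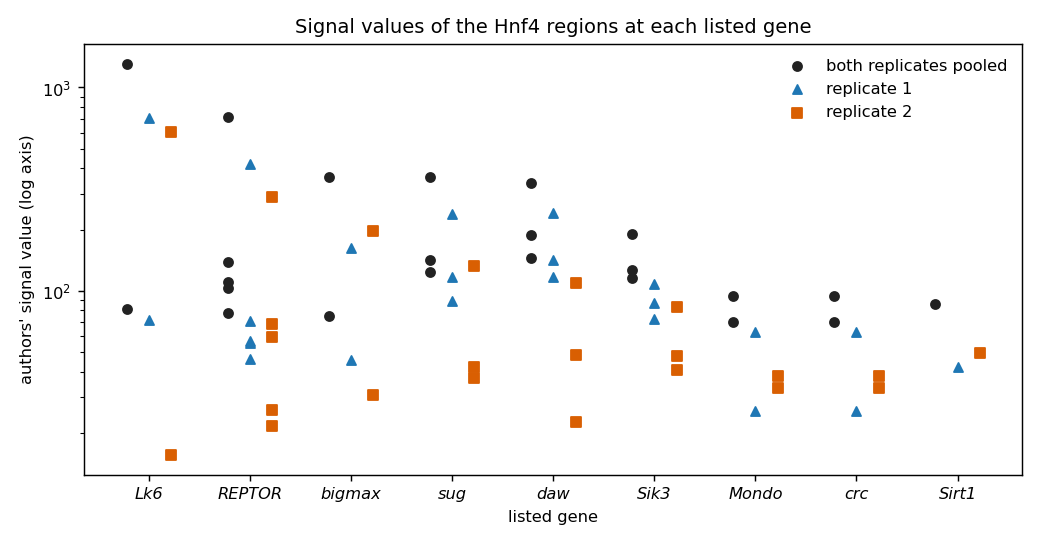
Points give the signal value, on a log axis, of each optimal region of a listed gene, from the pooled list in black and from the overlapping region of replicate 1 in blue and replicate 2 in orange. The lists are not on 1 scale, and within each of them the top point belongs to Lk6.

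Among the sugar sensors, Mondo had 2 regions, which it shared with its neighbour crc. The gene (FBgn0032940, 2L 21286078 to 21310050, minus strand) has 3 annotated start sites, and both optimal summits lay by the furthest upstream one. One summit, at 21309998 in a region of 101 bp, was 52 bp downstream of that start, in a 5′ UTR exon of 7 of its 11 coding transcripts. In the pooled list it had a signal value of 70.0, and the replicates gave it 25.7 and 38.0. This was number 5466 of the 5817 optimal regions, close to the lowest optimal signal value of 66.6. Replicate 2 had it among its 5817 strongest regions, at number 4002, and replicate 1 did not, at number 11852.

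The other shared region belonged by position to crc. The start sites of Mondo and crc (FBgn0000370, 2L 21310866 to 21319527, plus strand) are divergent, with 815 bp between the genes. The region spans 21310653 to 21311048. Its summit was 15 bp before the start of 3 crc transcripts and 801 bp from that of Mondo. Pooled, the signal value reached 94.4, the replicates gave 62.4 and 33.2, and it was among the strongest regions of both. The 2 summits were 853 bp apart, so each start had its own region, of which only the crc one was among the strongest regions of both replicates. Inside crc, 2 further regions were among the strongest of replicate 2 but not in the optimal set, with summits 342 bp and 879 bp upstream of the internal start of crc-RB. The nearer one had a signal value of 40.1 there, above both shared regions in that list. In the pooled list, regions with summits 222 bp upstream and 45 bp downstream of that start had 58.2 and 23.1, both below the lowest optimal value.

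**Figure D4:**
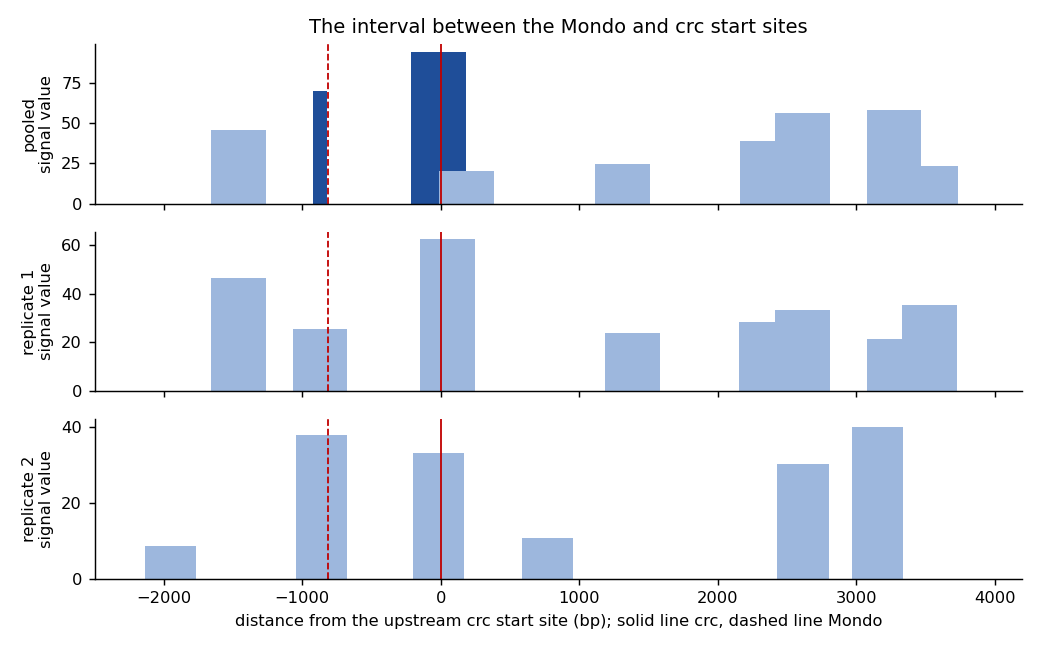
Bars span called regions by distance from the upstream crc start, with height the signal value in the pooled list (optimal regions dark) and in each replicate. The solid line is the crc start and the dashed line the Mondo start, and the tallest pooled bar, at 94.4, sits on the crc line.

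The partner gene bigmax (FBgn0039509, 3R 27287366 to 27288526, minus strand) had a region several times higher in signal value than that of Mondo. This region, 27288475 to 27288839, had a signal value of 363, with 163 in replicate 1 and 196 in replicate 2, both among the strongest regions. Its summit was 144 bp upstream of the single bigmax start and 99 bp upstream of the start of the neighbouring gene Hmu. The 2 genes are divergent, and the region cannot be given to one of them. A second region of signal value 74.9 had its summit 1326 bp upstream of bigmax and 1083 bp downstream of the Hmu start. In replicate 1 it ranked number 5855, outside the strongest 5817, and in replicate 2 number 5206.

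The sug gene (FBgn0033782, 2R 12924567 to 12930644, plus strand) had 3 regions, all in the first intron of its longer transcript and upstream of the start of the shorter one, sug-RA. The strongest, 12928221 to 12928583, had a signal value of 362, with 239 in replicate 1 and 132 in replicate 2. Its summit was 470 bp upstream of the sug-RA start and 3823 bp downstream of the sug-RB start. A second entry with a summit 211 bp away and a signal value of 124 overlapped it by 181 bp. Each replicate listed its own region there too, with 88.9 in replicate 1 and 42.1 in replicate 2, both among the strongest. The third, with a summit 1420 bp upstream of sug-RA, had 142, with 117 and 37.2 in the replicates. Of the pooled summits at the gene, the nearest to the sug-RB start was 895 bp upstream of it, with a signal value of 63.5, below the optimal set.

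The daw gene (FBgn0031461, 2L 2805261 to 2812376, plus strand) is the ligand of the set, and 2 of its 3 regions carried the direct repeats printed above. The upstream region, 2804548 to 2804939, had a signal value of 340, with 241 in replicate 1 and 109 in replicate 2. Its summit was 493 bp upstream of the start of daw-RB and daw-RC. A second entry, with a summit 211 bp away and a signal value of 144, overlapped it by 43 bp. Its own replicate regions had 117 in replicate 1, number 1335, and 22.6 in replicate 2, number 7668. The intronic region, 2806276 to 2806461, had 188, with 141 and 48.1 in the replicates, and its summit was 1113 bp downstream of the same start. All 3 entries overlapped a strongest region of both replicates, the second entry in replicate 2 only through the overlap with its stronger neighbour.

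Among the genes of the starvation branch, REPTOR (FBgn0039209, 3R 24557368 to 24582864, minus strand) had 5 optimal regions, the most of any listed gene. It is also the longest of them, at 25497 bp. Its strongest region, 24572453 to 24572964, had a signal value of 713, with 422 in replicate 1 and 289 in replicate 2. The summit was 194 bp upstream of the start of REPTOR-RC, an internal start, and lay in an intron of 5 of the 7 coding transcripts. The next region towards the 3′ end had its summit 65 bp downstream of the REPTOR-RG start, in a 5′ UTR exon, with a signal value of 77.9 and with 55.3 and 21.6 in the replicates. The distance between these summits was 789 bp, and the internal starts of REPTOR-RC and REPTOR-RG lay between them.

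The other 3 REPTOR regions were further from its start sites, with signal values below the strongest region but above the 77.9 of the 5′ UTR exon. A region in the intron 4379 bp downstream of the REPTOR-RG start had a signal value of 138, with 71.1 and 68.3 in the replicates. Another 5834 bp downstream had 110, with 56.3 and 26.0, and one just past the 3′ end of the gene had 103, with 46.3 and 59.1. The regions at 65 bp and 5834 bp were not among the strongest 5817 of replicate 2, where they were number 8090 and number 6416. Replicate 1 listed a further region, 24565918 to 24566082, with 96.9 there, that no optimal region overlapped. The strongest pooled region at any listed gene outside the optimal set also lay in a REPTOR intron, with a signal value of 64.6.

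Lk6, the kinase on the translation machinery, had the strongest region of the set. The gene (FBgn0017581, 3R 11750931 to 11764457, minus strand) has 2 start sites, and the region 11760845 to 11761269 lay between them. Its signal value was 1311 in the pooled list, 710 in replicate 1 and 601 in replicate 2, and it was number 18 of the 5817 optimal regions. The summit was in the first intron of Lk6-RA, 3407 bp downstream of its start, and 971 bp upstream of the start of Lk6-RB. A second region, 936 bp downstream of the Lk6-RB start, had 81.3, with 71.8 in replicate 1 and 15.5 in replicate 2. It was number 3056 in replicate 1 and number 12965 in replicate 2, so the replicates placed this weak region far apart.

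The kinase gene Sik3 (FBgn0262103, 2R 18688132 to 18705805, plus strand) had 3 regions, each among the strongest of both replicates. The region at its upstream start, 18687953 to 18688157, had a signal value of 191, with 108 in replicate 1 and 82.7 in replicate 2, and its summit was 71 bp upstream of the start of 4 transcripts. A region in the first intron, 175 bp downstream of the Sik3-RA start, had 126, with 86.5 and 47.8. The region in the second intron, 4673 bp downstream of the same start, had 115, with 72.9 and 40.8. All 3 lists put these regions in the same order.

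Sirt1 (FBgn0024291, 2L 13165564 to 13169551, plus strand) had a single optimal region, the lowest in signal value among the strongest regions of the 9 genes. This region, 13165075 to 13165235, had a signal value of 85.9, with 42.1 in replicate 1 and 49.4 in replicate 2. Replicate 2 had it among its strongest regions and replicate 1 did not. The summit was 449 bp upstream of the Sirt1 start but 97 bp upstream of the start of DnaJ-H, a gene named for its DnaJ chaperone domain. No other region at Sirt1 was in the pooled list.

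**Figure D5:**
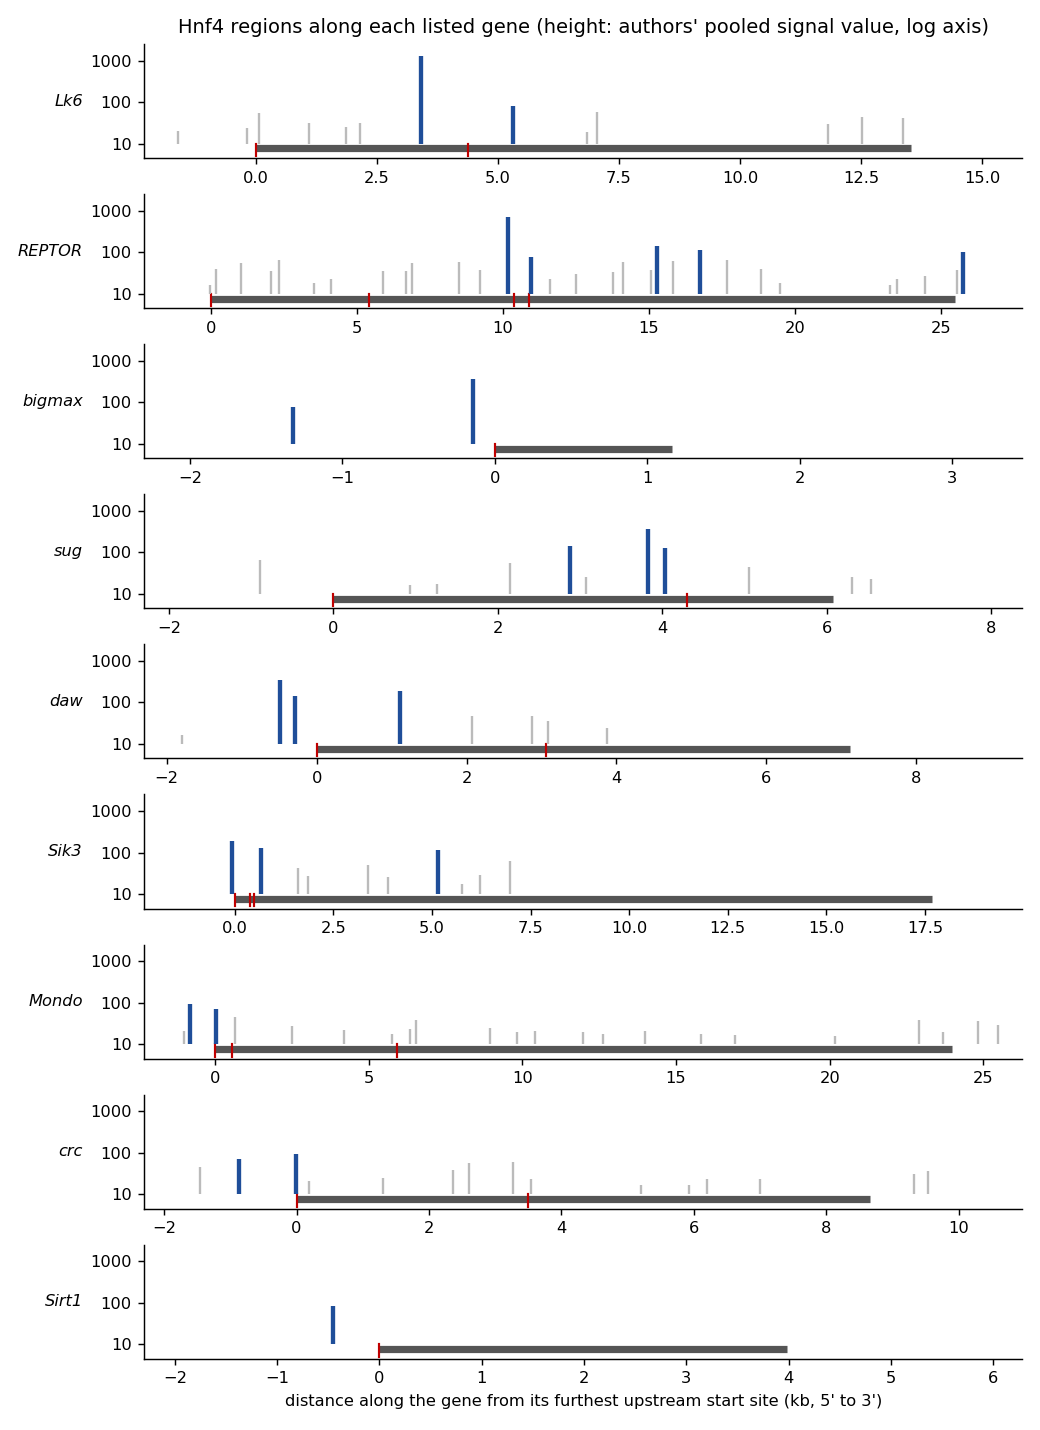
Each panel maps a listed gene by distance along it, with the gene body as a dark bar, its start sites as red ticks and pooled regions as bars whose height is the signal value on a log axis, blue for optimal and grey for weaker ones. The tallest bars of Lk6 and REPTOR, at 1311 and 713, stand inside the gene by an internal start site, while those of bigmax and Sirt1 stand just upstream of the gene.

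By position, 11 of the 21 regions had their summit in an intron, 7 upstream of the listed gene, 2 in a 5′ UTR exon and 1 downstream, with regions shared by Mondo and crc counted once. Within 1000 bp of a start site of the listed gene lay 14 regions, or 66.7%, and 53.8% of all optimal regions lay as near to a start site of any protein-coding gene. These shares are not alike, since the 21 regions had to lie in or near a gene and the optimal regions as a whole did not. The strongest regions of Lk6, REPTOR and sug lay inside the gene and upstream of an internal start. At bigmax, Mondo and Sirt1, a neighbour's start was nearer to the strongest summit than the listed gene's own. For Mondo that neighbour was crc.

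Of 10 motifs searched on both strands within 100 bp of the summits, 4 regions held the GAGA factor or FOXO site and 2 the Hnf4 direct repeat, and 15 of 21 held none of them. The direct repeat was at 2 of 21 regions, or 9.52%, against 0.705% of all optimal regions, and both were at daw. Only 4 genes in the genome had at least 2 such regions, out of 61 genes with one. The single Hnf4 site CAAAGTCCA was in none of the 21 windows and in 1.05% of all. GAGAGAG, the GAGA factor site, was in 3 windows (at Lk6, REPTOR and daw), or 14.3%, against 6.05% of all, and the 4 matches at daw overlapped each other in 1 run. GTAAACA, the FOXO site, was in the Lk6 and Sirt1 windows, or 9.52%, against 6.95%. At least 1 of the 10 motifs was in 28.6% of the listed and 24.0% of all optimal windows. A match describes the letters and is not shown here to be a bound site.

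The E-box CACGTG, part of the element that Mondo and bigmax bind, was in none of the 21 windows and in 2.15% of all. None held the CRE TGACGTCA (0.344% of all), the ATF4-type site TTGCATCA (0.584%), the DRE TATCGATA (4.04%), the M1BP site GGTCACAC (2.10%) or the GATA site AGATAAG (2.92%). Across the full gene windows there were 10 matches to the Hnf4 site or its direct repeat, at sug, REPTOR, crc and daw, of which one pair at sug overlapped. Only the 2 direct repeats of daw lay in a pooled region. The nearest of the others, a single site at daw, was 270 bp from an optimal summit, and the furthest, at REPTOR, was 11268 bp away.

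Below the optimal set, the listed genes held weaker regions too. The pooled list had 108 of its 30000 regions at these genes, a share like the 0.361% of the optimal set. Of the 108, 83 overlapped no optimal region, and most of the whole pooled list is not in the optimal set either. Replicate 1 had 108, with 5 of those outside the optimal regions among its strongest 5817, and replicate 2 had 96, with 6. REPTOR and Mondo, the longest listed genes, had 30 and 22 pooled regions, and Sirt1 and bigmax, the shortest, had 1 and 2. Between these the order was not that of length. Sik3, at 17674 bp, had 10, against 11 at sug, at 6078 bp, and 15 at crc, at 8662 bp.

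Genes that act with the listed regulators were counted the same way, in 6 lists of 43 genes. An optimal region was found at 27 of the 43, or 62.8%, against the 33.0% of all protein-coding genes given above. All 27 had support among the strongest regions of both replicates, so this share of the 43 was again 62.8%, against 27.1% of all protein-coding genes. Of the 4617 protein-coding genes with an optimal region, 3793 had such support. Neither share of all genes was matched for length, and among genes of at least 8662 bp 56.2% had a region. The median of the strongest signal value at the 27 genes was 182, against 161 for all genes with a region. At 10 of the 27 the strongest summit was nearer to the start of another gene. These lists too were drawn up with earlier results known. The counts for single lists below, each of few genes, stand beside the same shares of 33.0% and 56.2%.

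Among genes described as outputs of Mondo, 8 of 12 had a region. The highest signal value was 2177 at cbt, a zinc finger repressor of the sugar response, and was number 2 of all optimal regions. Zw, glucose-6-phosphate dehydrogenase of the pentose phosphate pathway, had 1123. ATPCL, ATP citrate lyase, had 1391, but that summit was 112 bp from the start of another gene and 7767 bp from its own. ACC and FASN1, which make fatty acids, had neither an optimal nor a relaxed pooled region.

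Of the Activin branch of daw, 5 of 6 genes had a region. The receptor gene babo had 205, and myo, another ligand, had 242, both nearer to another gene's start. Med, the shared Smad, had 906, with the summit 5113 bp from its own start and 1 bp from a neighbour's. The ligand gene Actbeta had 6 pooled regions, none of them optimal.

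Of the energy kinases and their outputs, 6 of 10 had a region. Thor, the fly 4E-BP that restrains translation, had 289 with a summit 31 bp downstream of its start. The AMPK beta subunit gene alc had 409, at a summit nearer to a neighbour, and Crtc, a coactivator that Sik kinases restrain, had 173, with the summit 10643 bp from its own start and 3974 bp from another gene's. AMPKalpha and Lkb1 had no pooled region.

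In the TORC1 list, 3 of 7 genes had a region, a share between those 33.0% and 56.2%. The signal values were 157 at Rheb, 124 at S6k and 103 at REPTOR-BP, the partner of REPTOR. The Rheb summit was 113 bp from its own start and 193 bp from a neighbour's. For S6k these distances were 6 bp and 36 bp, so neither region can be given to 1 gene alone. The REPTOR-BP summit was 1159 bp from its own start and 52 bp from a neighbour's. The genes gig and mTor had none. In the stress list 2 of 5 had a region, also between those shares. The signal values were 887 at PPP1R15, a phosphatase subunit whose summit was nearer to a neighbour, and 376 at Atf3, a bZIP factor. The upstream kinase Gcn2 had no pooled region, and eIF2alpha had 5 outside the optimal set. All 3 translation factors had a region, with 194 at eIF4A, 182 at eIF4E1 (nearer to a neighbour) and 97.1 at eIF4G1.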

How the data were processed

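Hnf4 binding was measured by chromatin immunoprecipitation with sequencing in 2 replicates that the labels call biological. Regions are in narrowPeak format, per the deposited file descriptions, with both replicates set against the same control. The optimal list was made from both replicates through the irreproducible discovery rate. Its 5817 regions were the same as the 5817 with the highest signal value in the pooled list. A pooled region outside the optimal list therefore has a lower signal value by construction. The authors' signal value is read here as a score that ranks regions within 1 list, and not as a fold over control. A pooled value can exceed both replicate values, as at Lk6 with 1311 against 710 and 601. The deposited −log10 q was read and not used, and summits came from the deposited offset within each region. Which aligner and peak caller were used is not given in the sources read here. The lists hold no read counts, so depth is unknown and no interval was computed.

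Genes were the protein-coding genes of Ensembl release 115, and sequences came from Release 6 (RefSeq), within whose chromosome lengths all regions lay. Positions are 1-based. Replicate support meant an overlap of at least 1 bp with one of the 5817 strongest regions of a replicate, and replicate values came from the overlapping region with the nearest summit. With 1 group and no contrast, no test was run. Members, companion lists and motifs were chosen with earlier results of these data known. Named genes were all 9 listed genes, neighbours whose start within 1000 bp of an optimal summit was nearer, and per companion list the 3 strongest genes and up to 2 without an optimal region in alphabetical order. ATF3 was matched as Atf3. The lists in the older dm3 build and the signal tracks were not used here. Alternatives varied the gene window, region set, replicate, overlap, start-site distance and motif window. The counting was tested on simulated data, where 200 of 200 planted summits and 20 of 20 planted motifs were found. Python 3.11.15, numpy 2.4.6, pandas 2.3.3 and matplotlib 3.10.9 were used.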

Additional observations from a re-analysis of the deposited data

How the results depend on the processing

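Of 36 alternative values for the main counts, 32 stayed within 1.5 times the reported count and 4 did not. Some of the 32 stood exactly at that limit. The 9 listed genes with a region became 6 with the gene body alone and 6 with the stronger 50% of optimal regions. The 27 companion genes became 18 with the gene body alone. The 21 regions at the listed genes became 13 with the gene body alone, a smaller window, and 13 with the stronger 50% of optimal regions, a smaller set. The 6 regions with a motif became 3 within 50 bp of the summit and 10 within 250 bp, since the searched length changed. With each replicate used alone, listed genes with a region ranged from 8 to 9, regions from 23 to 23 and companion genes from 28 to 29. Sirt1 was the gene lost when replicate 2 was left out. Among counts for single genes, 49 stayed within that limit and 23 did not. Sirt1 fell to 0 in 4 alternatives, crc in 2, and Mondo and bigmax in 1 each. Pairing each optimal region with the overlapping replicate region of highest signal value, in place of the nearest summit, changed the values of 2 regions (at sug and daw) and gave a rank correlation of 0.74 in place of 0.59. That choice was made after seeing the data. No paired analysis was possible because there is 1 group. Depth is unknown, so weak regions such as those of Mondo and Sirt1 cannot be given a counting error.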
